A study of Mus musculus with 4 samples.

Results

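The histone genes and histone variants of mouse testis were described in photo-isolation chemistry counts from wild-type mice and from mice in which the testis histone H3t had been deleted. Members were taken by gene symbol, as every gene whose name starts with an H1, H2A, H2B, H3, H4 or macroH2A prefix, whatever its annotated class. The rule found 47 of the 28595 genes in the count table, of which 41 are annotated as protein-coding, 5 as pseudogenes and 1 as antisense. In photo-isolation chemistry, ultraviolet light uncages DNA ends on a 10 µm tissue section, so that only RNA copied inside the lit area enters the library. The 4 groups were wild-type entire sections, H3t KO entire sections, wild-type tissue lit only over Leydig cells, and H3t KO tissue lit only over Leydig cells, each with 3 libraries. Leydig cells lie outside the seminiferous tubules and make steroid hormones. Wild-type titles carry the word young, while the sources used here do not give the age of the knockout mice, the strain or the extent of the deletion. Nothing in the labels ties the 3 libraries of a group to different animals, so a p-value covers variation among libraries that may be technical. Each group is 1 library pool, so pool and group cannot be told apart.

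Histones package DNA into nucleosomes, with H2A, H2B, H3 and H4 in the core and H1 on the linker between cores. Most core histone genes lie in clusters, are expressed when DNA replicates, and make messages that end in a short stem-loop in place of a poly(A) tail. Variant histones such as H3.3, H2A.Z and macroH2A come from separate genes with polyadenylated messages and are made through the whole life of a cell. In the testis a further set of variants is made in meiotic and postmeiotic germ cells, and during the last steps of sperm formation nearly all histones are exchanged for transition proteins and then protamines.

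As the method is published, photo-isolation chemistry copies RNA from poly(A) tails, so the annotated transcript ends were read first. The stem-loop was searched as the stem strand GGNNCT, a loop of 4 bases that starts with TT, and the complementary strand AGNNCC, on the transcript strand of GENCODE transcripts of the GRCm38 genome. It was found in 18 of the 47 members, including 14 of the 18 core H2A, H2B, H3 and H4 members, and in 57 of 55450 annotated genes (0.103%). The 5 forms found in members are shown with the stem in capitals and the loop in lower case, each for 1 member.
H1f2: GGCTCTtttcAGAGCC
H1f6: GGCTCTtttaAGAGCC
H2ax: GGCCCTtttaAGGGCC
H4c9: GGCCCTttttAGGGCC
H4c3: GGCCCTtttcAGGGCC
The H1f2 copy lies at chr13:23739512-23739527 on the plus strand, the H1f6 copy at chr13:23696525-23696540 on the plus strand and the H2ax copy at chr9:44335240-44335255 on the plus strand. The H4c9 copy lies at chr13:22040966-22040981 and the H4c3 copy at chr13:23698089-23698104, both on the minus strand. The stem-loop started 24 to 54 bases after the stop codon. In 15 of the 18 members an annotated transcript ran on for over 100 bases past it.

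The 18 members with a stem-loop held 320 of the 3334 histone counts, of which H1f2 had 114 and Hist1h2bp 115. Both genes have a transcript with AATAAA near its end, 20 bases before the end in H1f2 and 17 in Hist1h2bp. Of the other core genes with most counts, H2bc21, H4c1 and H2bc4 have no stem-loop in their annotated transcript. AATAAA lay 16 bases before the end in H2bc21 and 23 in H4c1, while H2bc4, with 382 counts, had none within 40 bases of its end. H1f6, the testis linker histone H1t of spermatocytes, had 4 counts in 12 libraries. Low counts of stem-loop members are therefore not read as low expression here, and the part of poly(A) priming in them was not tested.

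The genes that fell or rose together were also set side by side by their start regions. The 250 bases before the RefSeq start (GRCm38.p6) are printed for 4 members that were lower in the knockout, for H4c1, which had no count in any knockout library, and for H1f2, which was higher. The letters searched on both strands were ATTTGCAT, the octamer element of core H2B promoters, then CCAAT, a common element just upstream of starts, the start-site box TATAAA, and the cAMP response element TGACGTCA. Matches on either strand and at any distance from the start are in capitals and counted, so a match need not serve that start. The TATAAA match of Hist1h2bp is on the reverse strand, 212 bases before its start.
H1f7, chr15:98257308-98257557, minus strand: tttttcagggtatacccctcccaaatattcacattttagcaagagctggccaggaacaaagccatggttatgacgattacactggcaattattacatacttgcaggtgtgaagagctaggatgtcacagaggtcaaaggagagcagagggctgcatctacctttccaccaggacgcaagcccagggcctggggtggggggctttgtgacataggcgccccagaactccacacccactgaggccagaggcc
H2al2a, chr2:17996959-17997208, minus strand: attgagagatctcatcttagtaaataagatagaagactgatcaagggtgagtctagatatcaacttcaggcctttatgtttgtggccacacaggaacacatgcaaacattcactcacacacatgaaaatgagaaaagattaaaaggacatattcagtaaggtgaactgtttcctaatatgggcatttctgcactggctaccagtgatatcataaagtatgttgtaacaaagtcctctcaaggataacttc
H2bl1, chr13:98984566-98984815, minus strand: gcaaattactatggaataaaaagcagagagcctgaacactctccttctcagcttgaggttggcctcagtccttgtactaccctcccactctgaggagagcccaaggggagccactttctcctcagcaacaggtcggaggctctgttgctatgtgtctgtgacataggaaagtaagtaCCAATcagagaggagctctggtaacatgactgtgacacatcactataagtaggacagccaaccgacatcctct
Hist1h2bp, chr13:21787238-21787487, plus strand: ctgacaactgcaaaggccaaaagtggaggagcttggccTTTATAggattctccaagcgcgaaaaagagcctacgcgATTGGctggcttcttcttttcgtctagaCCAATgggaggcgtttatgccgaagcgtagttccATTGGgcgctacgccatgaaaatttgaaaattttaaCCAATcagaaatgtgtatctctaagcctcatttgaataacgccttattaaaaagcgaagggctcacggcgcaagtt
H4c1, chr13:23761250-23761499, minus strand: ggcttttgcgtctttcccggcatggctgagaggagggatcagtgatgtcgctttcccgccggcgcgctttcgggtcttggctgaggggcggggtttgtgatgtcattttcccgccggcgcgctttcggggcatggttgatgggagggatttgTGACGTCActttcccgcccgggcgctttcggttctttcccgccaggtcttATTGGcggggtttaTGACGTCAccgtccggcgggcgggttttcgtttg
H1f2, chr13:23738557-23738806, plus strand: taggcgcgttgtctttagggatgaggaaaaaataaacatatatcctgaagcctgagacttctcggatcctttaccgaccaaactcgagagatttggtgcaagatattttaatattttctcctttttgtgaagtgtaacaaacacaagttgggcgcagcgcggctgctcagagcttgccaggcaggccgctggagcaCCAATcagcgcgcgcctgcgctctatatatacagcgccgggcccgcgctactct
RefSeq promoters were found for 38 of the 47 members. CCAAT stood in 21 of these members against 33.8% of 32851 promoters of the same length, and TATAAA in 11 members against 12.4%. TGACGTCA, found in 1.55% of all promoters, stood in 2 members, H4c8 and H4c1, and H4c1 held 2 copies. The octamer, found in 1.6% of promoters, stood in 3 members. H1f7 and H2al2a held none of the 4 strings in this window, and the letters are given as a description only.

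Entire-section libraries held 247539 to 566527 counts and Leydig-targeted libraries 5947 to 54882, so 1 count was worth 1.77 to 4.04 CPM (each library's counts scaled to a common total) in sections and 18.2 to 168 CPM in Leydig-targeted libraries. Of the members, 2 had no count in any library and 25 had fewer than 10 counts. Genes were tested with edgeR's quasi-likelihood test after trimmed-mean (TMM) scaling, and 11 of the 47 members passed the expression filter of about 66.1 CPM in at least 3 libraries. A member could pass this filter through 1 high group alone, so counts over these 11 describe them and not all members. H1f7, H2al2a, H2bl1 and Hist1h2bp reached it only in wild-type libraries, and H2bc4 and H1f2 only in knockout libraries. The 11 members held 87.28% of the histone counts. CPM values below are shares of each library's total, while log2 fold changes are relative to the TMM scaling, under which the median change of all tested genes was -0.35 between genotypes in sections and -0.28 in Leydig-targeted libraries, and -0.67 and -0.42 between regions in wild type and knockout. In sections this median was 0.23 when libraries were scaled by their totals alone.

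The Leydig cells named in the labels, and other cell types that testis tissue holds, were checked against marker lists. Together 13 spermatocyte and spermatid markers took 3.20% to 5.87% of counts in wild-type sections and 0.0130% to 0.0954% in knockout sections, with Tssk1 at 0 there. In Leydig-targeted libraries they took 1.83% to 3.26% in wild type and 0% to 0.0113% in knockouts, where 9 of the 13 were at 0. Germ cell RNA was thus present in the wild-type libraries that were lit over Leydig cells. The 8 spermatogonia markers took 0.0654% to 0.0741% in wild-type and 0.0431% to 0.0550% in knockout sections. In Leydig-targeted libraries they took 0% to 0.0968% in wild type and 0.00658% to 0.0321% in knockouts, which overlapped. The 7 Leydig markers took 0.196% to 0.416% in wild-type sections, 1.59% to 2.14% in knockout sections, 0.807% to 1.44% in wild-type and 3.29% to 4.01% in knockout Leydig-targeted libraries, with none at 0. The 9 Sertoli markers took 0.231% to 0.467% in wild-type and 1.24% to 1.37% in knockout sections, and 0.185% to 0.364% in wild-type and 0.546% to 0.872% in knockout Leydig-targeted libraries. The 7 macrophage markers took 0.0126% to 0.0291% in wild-type and 0.0900% to 0.164% in knockout sections, and 0.0128% to 0.0168% and 0.0479% to 0.153% in Leydig-targeted libraries. The 5 peritubular myoid markers took 0.0526% to 0.113% in wild-type and 0.174% to 0.224% in knockout sections, and overlapped between genotypes in Leydig-targeted libraries. Endothelial markers took at most 0.0197% and lymphoid markers at most 0.00373% of counts in any library. Shares of the spermatocyte and spermatid, Leydig, Sertoli and macrophage markers did not overlap between genotypes in either region. Their part in the genotype results below was not tested. In such tissue libraries, fewer cells of a type and less RNA per cell cannot be told apart.

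The deleted gene could not be followed. H3f4 (ENSMUSG00000080152, chr11:58961812-58962222, plus strand), which RefSeq lists with the synonym H3t, had 1 count in wild-type section library 1 and none in the other 11 libraries. It overlaps Trim17 on the same strand, and 1 count checks no label. H3f4 is annotated as an unprocessed pseudogene in GENCODE and as protein-coding in RefSeq.

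In entire sections, 4 histone genes fell and 2 rose in the knockout among the 11 tested. The 4 that fell are 2 germ cell variants of H2A and H2B (H2al2a and H2bl1), the spermatid linker histone H1f7, and the core H2B gene Hist1h2bp. The 2 that rose are the somatic linker histone H1f2 and the core H2B gene H2bc4. Of all 5182 tested genes, 39.1% fell and 22.6% rose, so 4 and 2 of 11 are close to the background. With library totals alone 4 members fell and 4 rose, and 52.2% in place of 36.6% of all called genes were higher. With no expression filter 45 members could be tested, of which 11 fell and 2 rose beside 17.6% and 9.16% of 26389 genes. The histone genes as a sum took 1276 ± 142 CPM in wild-type and 1071 ± 188 CPM in knockout sections (SD, n = 3 each), and these libraries overlapped. Divided by TMM-scaled library sizes, the sum was 1605, 2529 and 1682 CPM in wild-type and 1021, 1215 and 941 CPM in knockout sections, which did not overlap. Whether the sums of the genotypes overlap therefore depends on the scaling.

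**Figure D1:**
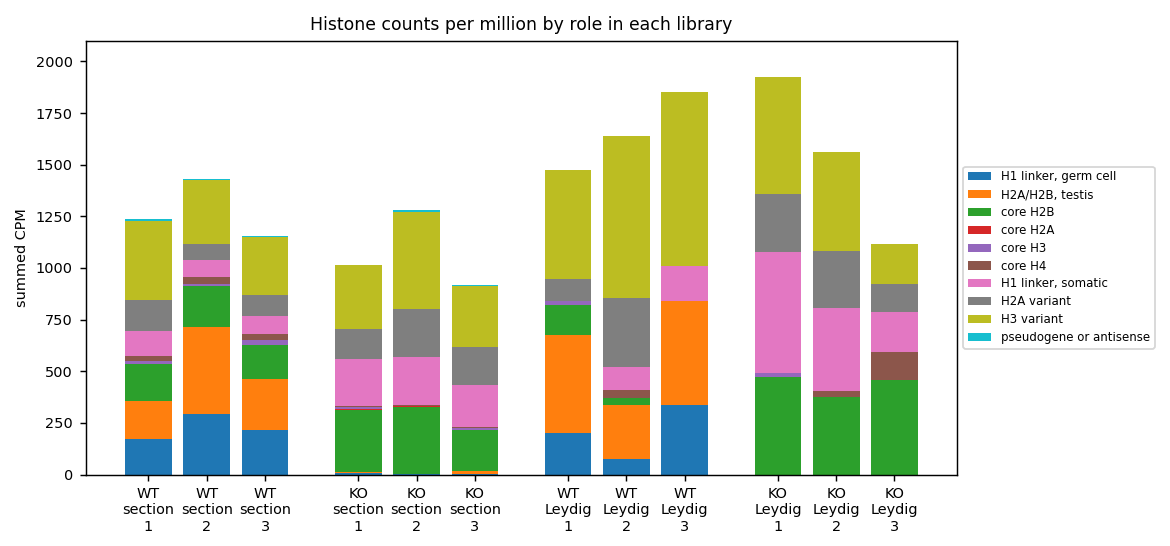
Stacked bars give the summed CPM of histone genes by role in each of the 12 libraries. Germ cell H1 (blue) and testis H2A and H2B (orange) reach 171 to 419 CPM each in wild-type sections and at most 12.4 CPM in knockout libraries, while somatic H1 (pink) is higher in knockout sections.

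Linker histones of germ cells came first by role. H1f7 (ENSMUSG00000048077, chr15:98255986-98257293, minus strand) encodes H1T2, a linker histone of haploid spermatids that is needed for normal condensation of the sperm nucleus. It had 171, 291 and 210.1 CPM in wild-type sections and 0, 0 and 3.11 CPM in knockout sections, the last being 1 count. Every wild-type section lay far above every knockout section, and 36% of all tested genes were likewise separated. The group ratio, from counts summed over a group and divided by its summed library totals, gave a 268-fold lower level in the knockout. Its exact 95% counting interval was 47.7 to 10616. All ratios with a counting interval are taken this way, so libraries with more counts weigh more. The log2 fold change was -7.86 ± 0.74 (SE, edgeR adjusted p = 1.69e-24). In wild-type Leydig-targeted libraries H1f7 had 182, 74.5 and 336 CPM, from 10, 2 and 2 counts, and in knockout ones none (11.2% of all tested genes were lower in every knockout library there). It was at least 5.74-fold lower in the knockout there, taking 3 counts over the group as a floor (edgeR adjusted p = 0.00104). The other germ cell linker histones were close to absent from these libraries: H1f6 had 3 counts in wild-type and 1 in knockout sections. H1f8, the oocyte linker histone, had 3 counts in knockout sections and 1 in a wild-type Leydig-targeted library.

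Of the 9 testis variants of H2A and H2B, the 2 tested ones, H2al2a and H2bl1, fell in the knockout in both kinds of library. H2al2a (ENSMUSG00000062651, chr2:17996417-17996958, minus strand) encodes H2A.L.2, a short H2A that enters spermatid chromatin together with transition proteins. It had 95.3, 241 and 145 CPM in wild-type sections and 6.31, 0 and 6.22 CPM in knockout sections, with no overlap. The log2 fold change was -5.72 ± 0.61 (SE, edgeR adjusted p = 1.51e-19), and the group ratio 38.4-fold (counting interval 16.2 to 120). In Leydig-targeted libraries it had 273, 74.5 and 336 CPM in wild type and no count in the knockout, which makes it at least 7.79-fold lower there (edgeR adjusted p = 0.00016).

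H2bl1 (chr13:98984085-98984565, minus strand), an H2B-like gene expressed in testis, had 26.5, 78.4 and 36.4 CPM in wild-type sections and 0, 0 and 3.11 CPM in knockout sections. The groups did not overlap, and the 1 knockout count gave a ratio of 57.9 with a counting interval of 10.0 to 2320. Its log2 fold change was -5.66 ± 0.84 (SE, edgeR adjusted p = 7.67e-11). In wild-type Leydig-targeted libraries it had 91.1, 186 and 168 CPM and in knockout ones none, at least 4.51-fold lower (edgeR adjusted p = 0.00272).

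The other testis H2A members are the X-linked H2al1 genes, H2al3 and H2ap, all under the expression filter. H2ap, an H2A-like gene, had 16, 21 and 5 counts in wild-type sections and none in any other library, at least 12.5-fold lower in knockout sections. H2al1m had 10, 14 and 4 counts against 1, 0 and 1, a ratio of 12.5 (counting interval 3.14 to 108). H2al1n had 4, 8 and 5 counts against none, at least 5.04-fold lower, and H2al3 had 2, 5 and 1 against none, at least 2.37-fold lower. In these 4 genes and in H2al1a the sections of the genotypes did not overlap, while those of H2al1o did. The 36% of genes separated this way was taken over genes that pass the filter. No such share was computed for genes with so few counts, so no result is read from this separation. H2al1a and H2al1o had 5 section counts each, all in wild type, and H2al1k had 1 count, in a wild-type Leydig-targeted library. The last 300 bases of H2al1a, H2al1k and H2al1m shared 99.6%, 96.8% and 78.9% of their 50-base stretches with other annotated genes, so the counts of single H2al1 copies are uncertain. With no expression filter, edgeR called H2ap (adjusted p = 4.27e-08), H2al1n (0.000283), H2al1m (0.000295) and H2al3 (0.02) lower in sections, and none of the 7 variants under the filter in Leydig-targeted libraries, where H2ap and H2al1a had no count.

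**Figure D2:**
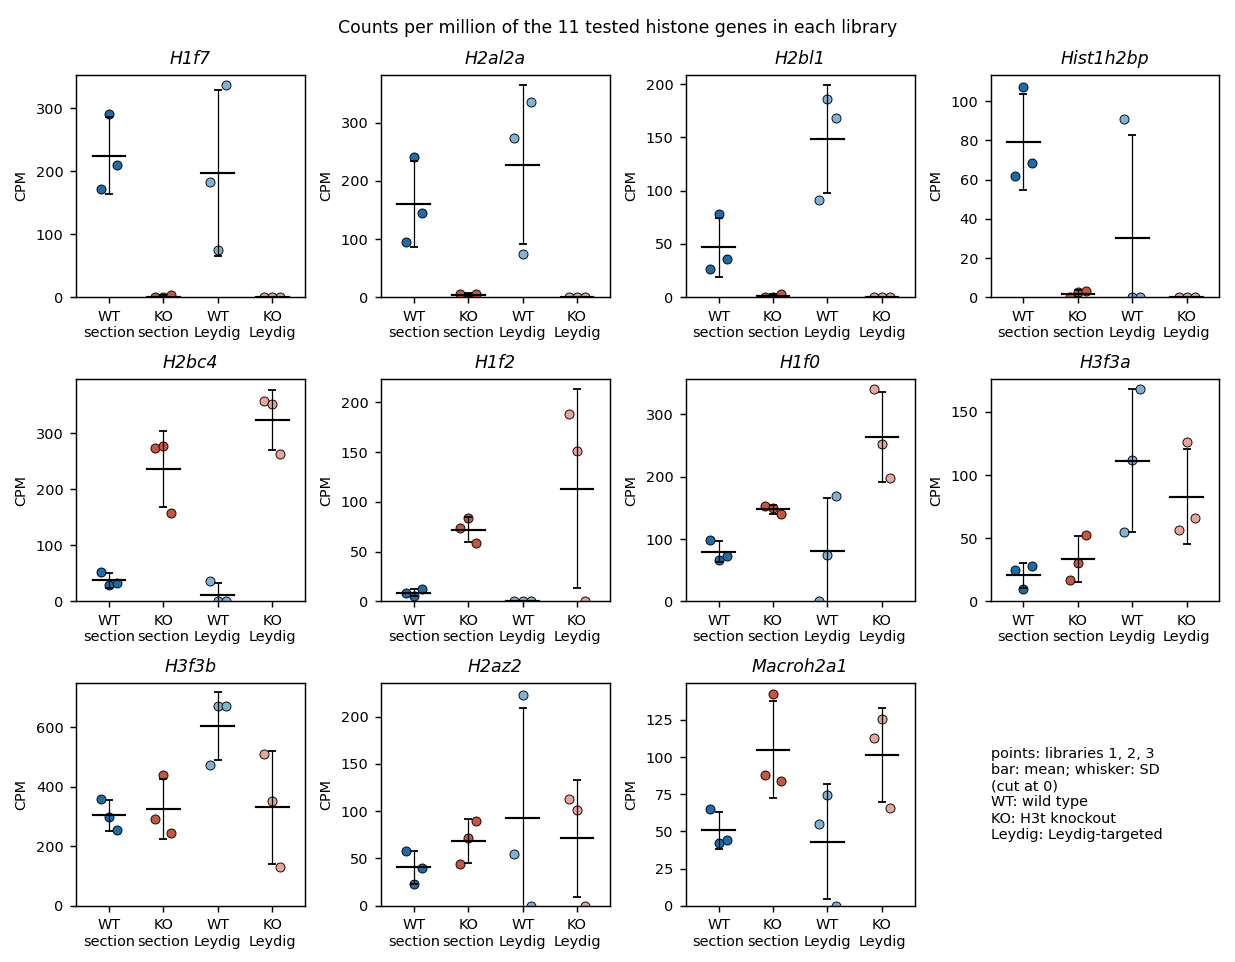
CPM of the 11 tested histone genes in each library (points), with the group mean (bar) and SD (whisker, not drawn below 0). H1f7, H2al2a and H2bl1 are near 0 in all 6 knockout libraries, and H2bc4 is higher in every knockout library than in any wild-type library of the same region.

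H1f2, a somatic linker histone, rose in the knockout. H1f2 (ENSMUSG00000036181, chr13:23738808-23740367, plus strand), which encodes H1.2 in the histone cluster, had 8.83, 5.74 and 12.1 CPM in wild-type sections and 73.6, 84.1 and 59.0 CPM in knockout sections. The groups did not overlap, as in the 39.6% of all tested genes that were higher in every knockout section, and the log2 fold change was 2.48 ± 0.60 (SE, edgeR adjusted p = 1.01e-04). In Leydig-targeted libraries it had no count in wild type and 189, 151 and 0 CPM in the knockout, at least 4.33-fold higher (edgeR adjusted p = 0.00649), though the groups overlap at 0. That call was lost without wild-type Leydig-targeted library 1 (adjusted p = 0.124).

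H1f0 (chr15:79028450-79030504, plus strand) encodes H1.0, the linker histone of differentiated and non-dividing cells. It had 98.8, 67.0 and 72.7 CPM in wild-type sections and 153, 150.4 and 139.9 CPM in knockout sections, which did not overlap as shares of the total. After TMM scaling the log2 fold change was 0.31 ± 0.43 (SE, edgeR adjusted p = 0.545), and with library totals alone it was 0.88 (adjusted p = 0.0427). In Leydig-targeted libraries H1f0 had 0, 74.5 and 168 CPM in wild type, from 3 counts in all, and 339.6, 252 and 197 CPM in the knockout. There it rose, with a group ratio of 8.40 (counting interval 2.62 to 42.9) and a log2 fold change of 2.73 ± 0.92 (SE, edgeR adjusted p = 0.0156). The call rests on few libraries: without wild-type Leydig-targeted library 1 the log2 fold change was 1.38 (adjusted p = 0.363), and without knockout Leydig-targeted library 1 it was 2.44 (adjusted p = 0.0719). The gene overlaps the minus-strand model Gm49544, whose reads cannot be told apart. H1f10, a somatic linker histone under the filter, had section counts of 8, 3 and 1 in wild type against 0, 0 and 1 in the knockout, a ratio of 10.7 (counting interval 1.58 to 457), and was called lower with no filter (edgeR adjusted p = 0.03).

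Core histone genes differed in direction among themselves. H2bc4 (chr13:23684199-23692908, plus strand), a core H2B gene of the chromosome 13 cluster, had 53.0, 28.7 and 32.3 CPM in wild-type sections and 273, 278 and 158 CPM in knockout sections. No library overlapped, and H2bc4 rose with a log2 fold change of 2.03 ± 0.47 (SE, edgeR adjusted p = 4.53e-05). In Leydig-targeted libraries it had 36.4, 0 and 0 CPM in wild type and 358, 353 and 263 CPM in the knockout. Here too the groups did not overlap, as in 13.5% of all tested genes. The group ratio was 15 (counting interval 3.88 to 129) and the log2 fold change 3.64 ± 0.98 (SE, edgeR adjusted p = 0.00209). Both wild-type counts were in library 1, without which the group had none and H2bc4 was still called (adjusted p = 0.0177). H2bc4 was thus higher in the knockout in both regions, beside the Leydig, Sertoli and macrophage marker shares given above.

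Hist1h2bp (chr13:21787461-21789213, plus strand), another core H2B gene of the same cluster, had 61.8, 107 and 68.7 CPM in wild-type sections and 0, 2.55 and 3.11 CPM in knockout sections. It fell by 5.73 ± 0.73 on the log2 scale (SE, edgeR adjusted p = 2.50e-14), with a group ratio of 48.1 (counting interval 13 to 402). Its 5 counts in wild-type Leydig-targeted tissue were all in library 1, and the knockout had none, at least 2.05-fold lower (edgeR adjusted p = 0.0441, and 0.0522 with the replicate block). That call was lost in 10 of 18 alternatives, with adjusted p from 0.0242 to 0.284, and could not be made without library 1. The last 300 bases of its 2 transcripts shared 78.5% and 24.3% of their 50-base stretches with other genes, so counts of this copy are uncertain.

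H2bc21 and H4c1 were under the filter but led the other core genes by count. H2bc21 (chr3:96221119-96223738, plus strand), a core H2B gene outside the chromosome 13 cluster, had 60.0, 61.2 and 56.6 CPM in wild-type sections and 23.1, 33.1 and 31.1 CPM in knockout sections, with no overlap. By group ratio it was 2.09-fold lower in the knockout (counting interval 1.39 to 3.23), and with no filter it was called lower (log2 fold change -1.30 ± 0.50, SE, edgeR adjusted p = 0.0378). In Leydig-targeted libraries it had 2 counts in wild type and 10 in the knockout, and the groups overlapped. H4c1 (chr13:23760692-23761230, minus strand), a core H4 gene, had 12, 16 and 6 counts in wild-type sections and none in knockout sections, at least 10.1-fold lower (with no filter, edgeR adjusted p = 4.70e-07). H4c1 shared 38.6% of the stretches in its last 300 bases with other H4 genes. H3c1 and H3c15, core H3 genes, gave 9 and 8 section counts in wild type (knockout: 2 and 6), and neither was called with no filter (edgeR adjusted p = 0.177 and 0.718). The other core members had at most 9 counts each over the 12 libraries.

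**Figure D3:**
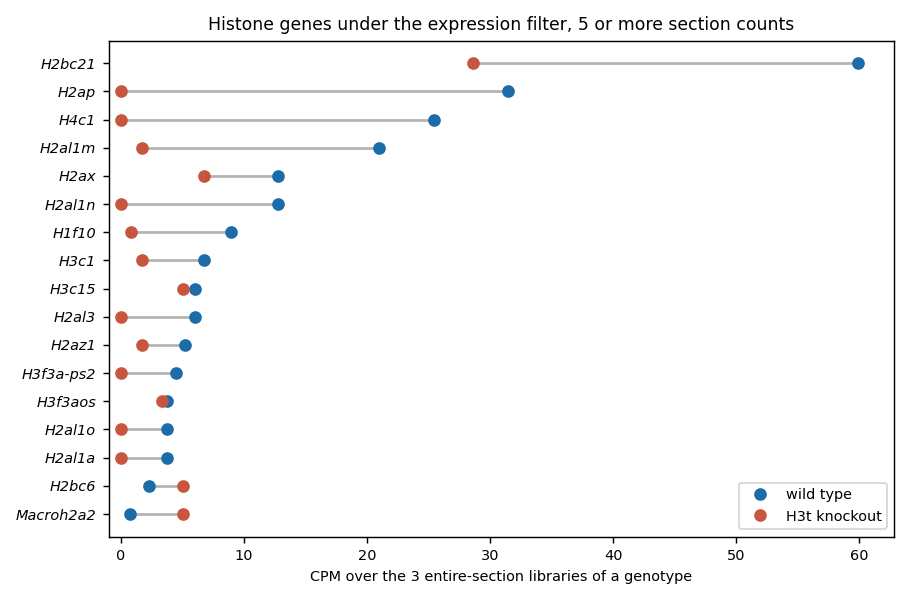
CPM over the 3 entire sections of each genotype for histone genes under the expression filter with 5 or more section counts. H2ap, H4c1 and H2al1n have no knockout count, while H2bc21 has 59.8 CPM in wild type and 28.6 CPM in the knockout.

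H2A variants of ordinary cells showed no call under the main scaling in sections. H2az2 (chr11:6427229-6444443, minus strand), which encodes H2A.Z.2, a variant of active and poised promoters, had 58.2, 23.0 and 40.4 CPM in wild-type and 44.1, 71.4 and 90.1 CPM in knockout sections. These overlapped, with a log2 fold change of 0.18 and a 95% interval of -0.74 to 1.09 (edgeR adjusted p = 0.756). Macroh2a1 (chr13:56073619-56136361, minus strand), which encodes a large H2A variant of repressed chromatin, had 65.3, 42.1 and 44.4 CPM in wild-type and 88.3, 143 and 83.9 CPM in knockout sections. Shares did not overlap, but the TMM-scaled log2 fold change was 0.45 ± 0.44 (SE, edgeR adjusted p = 0.383). It was called higher with library totals alone (1.02, adjusted p = 0.0211) and in a fit of the section libraries alone (0.77, adjusted p = 0.0419). Macroh2a1 overlaps the plus-strand model Gm47071. In Leydig-targeted libraries both genes rested on few counts and the genotypes overlapped. H2az2 had 54.7, 223 and 0 CPM in wild type and 113, 101 and 0 CPM in the knockout (log2 fold change -0.42, 95% interval -2.08 to 1.24, edgeR adjusted p = 0.754). Macroh2a1 had 54.7, 74.5 and 0 CPM against 113, 126 and 65.8 CPM (0.73, 95% interval -1.10 to 2.56, adjusted p = 0.599). Under the filter, H2ax, the variant phosphorylated at DNA breaks and on the sex chromosomes in meiosis, had section counts of 8, 6 and 3 in wild type against 4, 4 and 0 in the knockout. H2az1, the other H2A.Z gene, had 7 and 2 section counts.

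The 2 genes of the replacement histone H3.3 were measured in every library. H3f3b (chr11:116021912-116027962, minus strand) had 358, 298 and 255 CPM in wild-type and 292, 439 and 246 CPM in knockout sections, which overlapped. The log2 fold change was -0.50 with a 95% interval of -1.37 to 0.37 (edgeR adjusted p = 0.326), and with library totals alone it was 0.09. In Leydig-targeted libraries it had 474, 670.3 and 673 CPM in wild type and 509, 353 and 132 CPM in the knockout, again overlapping (log2 fold change -0.74, 95% interval -1.86 to 0.38, edgeR adjusted p = 0.351). H3f3a (chr1:180800832-180813943, minus strand), whose start overlaps the antisense gene H3f3aos, had 24.7, 9.57 and 28.3 CPM in wild-type and 16.8, 30.6 and 52.8 CPM in knockout sections. Its log2 fold change was 0.14 with a 95% interval of -0.99 to 1.27 (edgeR adjusted p = 0.845). In Leydig-targeted libraries H3f3a had 54.7, 112 and 168 CPM in wild type and 56.6, 126 and 65.8 CPM in the knockout (log2 fold change -0.17, 95% interval -1.98 to 1.65, edgeR adjusted p = 0.917). These intervals leave room for changes in either direction. Of the pseudogene and antisense members, H3f3aos had 9 counts, H3f3a-ps2 6 (4, 2 and 0 in wild-type sections), Hist1h2al 1, and H3f3c and H1f11-ps none.

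**Figure D4:**
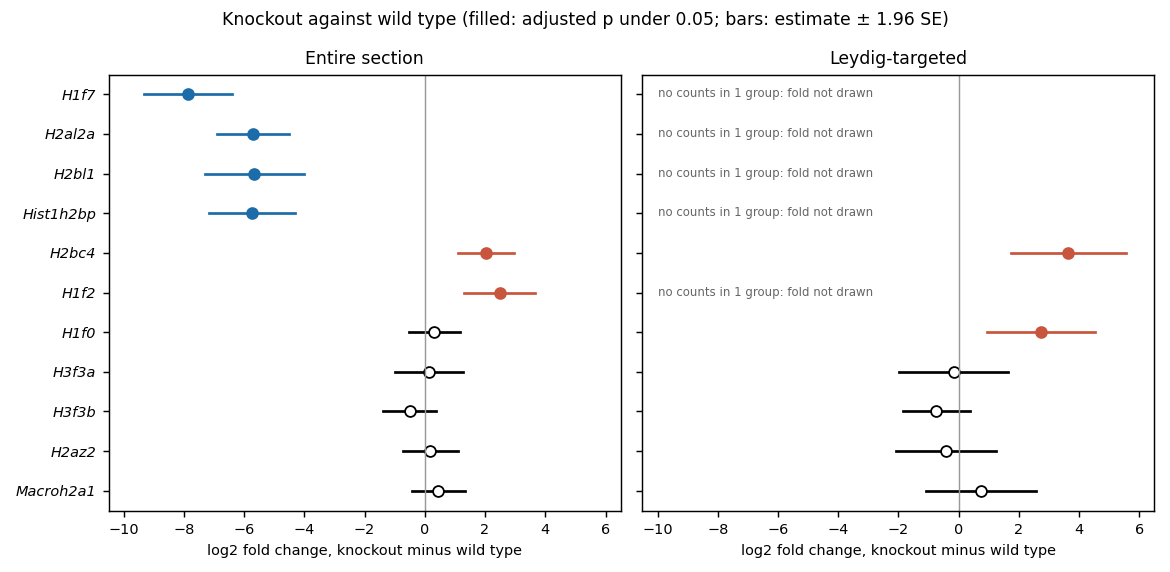
Log2 fold change of the 11 tested genes, knockout minus wild type, in sections (left) and Leydig-targeted libraries (right), with 95% intervals. Filled points passed the edgeR threshold. Folds against a group with no counts are not drawn, and the 2 points right of 0 on the right panel that are filled are H2bc4 and H1f0.

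In Leydig-targeted libraries 4 of the 11 tested members fell and 3 rose, beside 20.9% and 7.55% of all tested genes. The 4 that fell, H1f7, H2al2a, H2bl1 and Hist1h2bp, were called lower in sections too, and H1f2 and H2bc4 were called higher in both. All of these passed the expression filter only through the genotype in which they are high. Their number among the 11 is therefore not read as an excess over all tested genes. Without the wild-type library of 5947 counts the numbers were again 4 and 3, and without wild-type library 1 only H2bc4 was still called higher. Of all called genes 26.5% were higher, and 12.6% with library totals taken over the tested genes. A sum over core H2A, H2B, H3 and H4 members gave 164, 74.5 and 0 CPM in wild type and 491, 403 and 592 CPM in the knockout, and somatic H1 members gave 0, 112 and 168 CPM against 585, 403 and 197. In sections the core sum was 215, 243 and 214 CPM against 315, 334 and 214, and the somatic H1 sum 125, 80.4 and 88.9 against 229, 235 and 202. H2bc4 alone gave 290 of the 350 core counts in knockout sections, against 53 of 302 in wild-type sections. In knockout Leydig-targeted libraries it gave 37 of 51 core counts, and H1f0 and H1f2 gave 31 and 16 of 50 somatic H1 counts. The sums thus mostly restate these genes and do not show a rise of core histones as a class.

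The genotype by region interaction was not past the threshold for any of the 11 members, while 0.328% of all tested genes were (58.8% of them positive, 23.0% with library totals alone and 11.1% with totals over the tested genes). The smallest value was for H1f0, with a difference of log2 fold changes of 2.41 ± 1.05 (SE, unadjusted p = 0.0212, edgeR adjusted p = 0.362), the only one of the 11 with an unadjusted p under 0.05. With no filter, H2bc21 gave 3.67 ± 1.23 (SE, unadjusted p = 0.00298, edgeR adjusted p = 0.444), from 80 and 34 section and 2 and 10 Leydig-targeted counts in wild type and knockout. DESeq2 called 0 members as well. A different genotype change between sections and Leydig-targeted libraries was therefore not shown for any member.

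Leydig-targeted libraries were then compared with sections of the same genotype. No tested histone gene passed the threshold in either genotype, with 0 of 11 at an unadjusted p under 0.05 and 0 by DESeq2. Of all tested genes, 3.22% were called higher and 12.4% lower in wild type, and 1.91% and 3.53% in the knockout. The higher share of calls was 20.6% in wild type and 35.1% in the knockout, but 57.0% and 52.6% with library totals alone and 42.2% and 12.4% with totals over the tested genes. In wild type H1f7 gave a log2 fold change of -1.14 ± 0.59 (SE, edgeR adjusted p = 0.176), and H2al2a gave -0.28 ± 0.55 (SE, adjusted p = 0.76). The 95% intervals were -2.29 to 0.01 for H1f7 and -1.35 to 0.79 for H2al2a. H2bl1 gave 0.76 (95% interval -0.60 to 2.12, adjusted p = 0.467), with every Leydig-targeted library above every section and a group ratio of 2.58 (counting interval 1.23 to 4.93). H3f3a gave 1.47 ± 0.86 (SE, adjusted p = 0.232) in wild type and 1.16 ± 0.76 (SE, adjusted p = 0.415) in the knockout, with every Leydig-targeted library above every section in both, as in 7.78% and 8.34% of all tested genes. With no filter, H1f7 (-1.84, adjusted p = 0.0362) and H2ap were called lower in wild-type Leydig-targeted libraries, beside 5.47% of all genes. In the knockout H1f0 gave 0.71 ± 0.51 (SE, adjusted p = 0.474), again with every Leydig-targeted library above every section (group ratio 1.93, counting interval 1.27 to 2.84). H3f3b was separated in the same way in wild type, with a group ratio of 1.73 (counting interval 1.26 to 2.34). Its log2 fold change there was 0.24 (edgeR adjusted p = 0.784). H1f2 lay the other way in wild type, with 11 section counts and 0 in Leydig-targeted libraries.

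Genes that supply and exchange histones were read from lists named for that role. Of 9 genes for histone mRNA processing 2 were tested. Slbp, whose protein binds the histone stem-loop, fell in knockout sections from 175 to 48 counts (log2 fold change -2.28 ± 0.45, SE, edgeR adjusted p = 1.76e-06) and in Leydig-targeted libraries from 11 to 2 (adjusted p = 0.0421). Of 17 tested chaperone and deposition genes, 6 fell and 4 rose in sections, with a median of -0.65 beside -0.35 for all genes. These shares are close to the 39.1% lower and 22.6% higher among all tested genes. Nasp, a chaperone of H3 and H4 with a testis form, fell by 3.45 ± 0.49 on the log2 scale (SE, edgeR adjusted p = 1.42e-11), and Asf1b, an H3 and H4 chaperone of dividing cells, fell by 2.71 ± 0.46 (SE, adjusted p = 1.21e-08). Ep400, of the remodeller that deposits H2A.Z, fell by 1.99 ± 0.45 (SE, adjusted p = 3.82e-05).

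The 4 that rose in sections were Anp32e, which removes H2A.Z, Rbbp7, a histone-binding subunit of several complexes, Set, a histone chaperone, and Atrx, which deposits H3.3 with Daxx. The log2 fold change of Anp32e was 2.65 ± 0.57 (SE, edgeR adjusted p = 1.19e-05) and that of Rbbp7 2.16 ± 0.48 (SE, adjusted p = 1.97e-05). Set gave 1.72 ± 0.50 (SE, adjusted p = 0.00134) and Atrx 1.72 ± 0.52 (SE, adjusted p = 0.00229). In Leydig-targeted libraries Rbbp7 and Atrx were called higher and Nasp lower among the 17. Atrx had 41 knockout counts and no wild-type count there, at least 11.1-fold higher (edgeR adjusted p = 3.29e-05). Of 3 tested DNA replication genes Top2a alone fell, in both regions, and it is named after its values were seen (sections: -2.20 ± 0.46, SE, adjusted p = 5.08e-06).

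For histone exchange in spermatids, 11 of 16 tested genes fell and none rose in sections, with a median of -3.33 beside -0.35 for all genes, of which 39.1% fell. In Leydig-targeted libraries 9 of 16 fell, beside 20.9% of all genes. The protamine genes Prm1 and Prm2 fell from 15564 to 100 and from 21035 to 171 section counts, and the transition proteins Tnp1 and Tnp2 from 6133 to 58 and from 1000 to 6. The edgeR adjusted p of these 4 lay between 2.72e-32 and 3.92e-27. All 4 are also among the spermatocyte and spermatid markers above, so their fall is not separate from those shares. H1f7, H2al2a and H2bl1 fell beside these genes, which are known to be made in the same postmeiotic cells.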

How the data were processed

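The deposited values are whole-number counts per gene, which the authors did not normalize. HISAT2, featureCounts, Trim Galore and UMI-tools are listed, with the GRCm38 genome, per the submitters' processing notes. The sources used here give no versions and no strand setting, so reads of overlapping genes on either strand cannot be told apart. Counts were tested with edgeR 4.0.16 in R 4.3.3, in 1 robust quasi-likelihood model over all 12 libraries, a coefficient for each group and TMM scaling. The expression filter had a minimum count of 10 and left 5182 genes, and Benjamini-Hochberg adjustment was over all of them with a threshold of 0.05. The fit was tested on simulated data. Alternatives were other scalings, DESeq2 1.42.0, other filters, a replicate block, fits of the compared groups alone and leaving out each library. The scaling with totals over the tested genes was chosen after seeing the data. Sections of the 2 genotypes with the same number in their column names deviated together across genes (r = 0.243, 0.132 and 0.194). Leydig-targeted pairs did not (r = -0.004, 0.008 and -0.006). The labels do not say what the numbers stand for. Library 3 held the fewest counts in both section groups (247539 and 321771), and the part of depth was not tested. The main fit did not use the numbers, so its p-values ignore any pairing, and only the replicate block used them. Counting intervals cover counting error only. Folds given as at least some value take the count of the higher group as exact. They cover counting error only in the group with no counts and are not lower confidence limits. The counting intervals are exact at 95%, and the floor is 3 counts over a group. The 95% intervals of log2 fold changes are not exact: they are normal intervals from the edgeR estimate and its SE. That SE was derived from the estimate and its test statistic. Gene positions and transcript ends are from GENCODE, and promoters and further names from RefSeq, which matched 46 of the 47 members. The members and lists were chosen with earlier results of these data known. Named were tested members, the deleted gene, the 10 untested members with most counts, testis variants, pseudogene members, and up to 4 called genes per direction of the supply and exchange lists. The plot of untested members shows those with at least 5 section counts. H2bc1, H2ac1, H1f9 and H3f5, further testis histones, have no row under these symbols in the count table and are not analysed here. The 47 members are thus the histone genes that the table names, and not the whole family.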

Additional observations from a re-analysis of the deposited data

How the results depend on the processing

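In sections the calls of H1f7, H2al2a, H2bl1, Hist1h2bp, H2bc4 and H1f2 held in all 20 alternatives run for each, and in Leydig-targeted libraries those of H1f7, H2al2a, H2bl1 and H2bc4 held in all 19. In sections 4 members rose with library size alone, and 11 fell with no filter, because more members were then tested. In Leydig-targeted libraries a fit of those libraries alone gave 0 higher and 0 lower, with 1 member tested. Leaving out 1 library gave 1 to 3 higher and 3 to 4 lower there. In wild type 2 members were lower in Leydig-targeted libraries than in sections with no filter. With the replicate block, 2 rose and 4 fell in sections, and 3 rose and 3 fell in Leydig-targeted libraries, where Hist1h2bp was lost (adjusted p = 0.0522). It changed no other call. H1f0 in Leydig-targeted libraries was also lost with library totals over the tested genes (adjusted p = 0.0508). Of values under the threshold, H3f3a changed sign in sections when 1 library was left out (-0.34 to 0.64), and H2az2 likewise (-0.0824 to 0.86), while H3f3b was 0.0937 with library size alone. In Leydig-targeted libraries H3f3a was 0.0146 with library size alone, 0.43 with no filter and 0.24 with a minimum count of 5, and -0.75 to 0.15 over left-out libraries. H2az2 was 0.20 there with no filter and -1.17 to 0.66 over left-out libraries. The cause was not tested. A further 24 results under the threshold, members in the region comparisons and the interaction, gave 459 values of which 0 passed and 58 changed sign. At 5947 to 54882 counts per Leydig-targeted library, members under about 66.1 CPM could not be tested.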
